A study of Mus musculus with 2 samples.

Results

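The microRNA (miRNA) genes described here lie in tandem inside Sfmbt2, on the same strand as this host gene. They were taken as all genes of type miRNA in the GENCODE M21 annotation that lie fully within Sfmbt2 in the sense orientation, which gave 119 of the 2202 miRNA genes counted. By name stem, 29 were Mir669, 23 Mir466, 14 Mir467 and 5 Mir297, and 48 carried a predicted-gene (Gm) name. The small RNA libraries, 2 in number and forming 1 group, came from total RNA of the hippocampus of female B6CASTF1/J mice aged 36 days, the offspring of a cross between the strains C57BL/6J and CAST/EiJ. The labels word the tissue as layer of hippocampus and do not name the layer. They call the libraries biological replicates 1 and 2 and give both the same donor entry. The SDs therefore measure the spread between these libraries, which may be partly technical. No treatment, age or tissue was contrasted.

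Sfmbt2 encodes a Polycomb-group protein and is an imprinted gene, known for expression from the paternal copy in extraembryonic tissue. The miRNA array in its intron is found in rodents and is known mainly from placenta and early embryonic cells, where it is among the abundant miRNA sources. Each gene encodes a hairpin from which mature miRNAs of either arm can be cut, and a mature miRNA recognises its targets mainly through its seed, bases 2 to 8 from the 5′ end. The deposited counts are per hairpin gene, without separating arms or parental alleles.

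Genes with the same stems also lie outside Sfmbt2, and the RefSeq sequences used here (GRCm38.p6) hold a mature miRNA for 8 of those 10 genes. All 8 are shown as examples of what miRNAs with these stems look like, written 5′ to 3′ with the seed in capitals.
miR-466q: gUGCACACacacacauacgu
miR-466k: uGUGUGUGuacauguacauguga
miR-466j: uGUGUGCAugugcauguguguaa
miR-466i-3p: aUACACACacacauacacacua
miR-467f: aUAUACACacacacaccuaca
miR-467g: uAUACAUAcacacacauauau
miR-467h: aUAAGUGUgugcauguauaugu
miR-669n: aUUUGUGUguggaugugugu
No seed was shared by any pair of the 8. The seed letters of miR-467g occurred in 78 of the 119 Sfmbt2 hairpins (65.5%), against 6.49% of all annotated hairpins. Those of miR-466j occurred in 62 (52.1%, against 4.81%) and those of miR-466i-3p in 60 (50.4%, against 8.17%). The seed of miR-466k was found in 50 (42.0%, against 9.54%), that of miR-466q in 30 (25.2%, against 2.63%) and that of miR-467f in 27 (22.7%, against 5.13%). For miR-669n it was 10 (8.40%, against 2.59%), and for miR-467h it was 1 (0.840%, against 0.636%). A match of 7 letters anywhere in a hairpin is a description and does not place it in a mature miRNA. None of the 8 complete mature sequences was found in a Sfmbt2 hairpin.

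Short alternating repeats were also common in the Sfmbt2 hairpins. The letters TGTGTG, searched on the hairpin's own strand, occurred in 110 of 119 (92.4%), against 16.8% of all annotated hairpins. ACACAC, searched in the same way, occurred in 81 (68.1%, against 11.3%). Median GC content was 37.3%, against 50.8% over all hairpins, and hairpin length ranged from 73 to 127 bases.

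Sfmbt2 (ENSMUSG00000061186.15) lies on the plus strand of chromosome 2 from 10370510 to 10595253 (mm10). All 119 genes fell in 1 intron, intron 10 of the 23-exon transcript Sfmbt2-201, at 10461473 to 10523944, and 0 members overlapped an exon. The array ran from 10465287 to 10518279, which is 53.0 kb of an intron of 62.5 kb. Neighbouring members started a median of 294 bases apart. The Mir467a and Mir467b genes, 11 in number, recurred with a median spacing of 2454.5 bases (2413 to 4880), each followed by a Mir466 gene, or in 1 case by Gm25285, and then by a Mir669 gene.

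The 2 libraries held 2928141 and 3644157 sense reads on miRNA genes in replicates 1 and 2. Levels are given as counts per 1000000 of these reads (CPM), as mean ± SD with n = 2. Detection required 10 or more reads in both libraries, which are 3.42 and 2.74 CPM. Reads that fit several genome positions equally well were kept apart from all genes, and there were 1.28 and 1.32 of them per assigned read. For a repeated array this means that reads common to several copies enter no gene's count. Among 14 brain marker genes 10 were detected, led by Mir126a of vessels (11743 ± 3922 CPM) and by neuronal Mir132 (11395 ± 1073 CPM) and Mir137 (10871 ± 2488 CPM), while Mir124a-1, Mir124a-2, Mir124a-3 and Mir9-2 stayed below 10 reads. Mir124a and Mir9 are each annotated as several genes, and reads common to such copies would likewise enter no count. Their low counts thus do not show absence of these miRNAs. Of 8 genes listed for placenta and embryo, 7 matched an annotated symbol. Mir290a, Mir291a, Mir293, Mir294 and Mir295 held 0 reads in replicate 1 and 1 read in replicate 2 in all, and Mir322 (1261 ± 299.8 CPM) and Mir503 (15.8 ± 2.23 CPM) were detected.

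Of the 119 genes, 8 were detected, 5 had fewer reads, and 106 had no read in either library. Over all miRNA genes 17.1% were detected, against 6.72% of this array. The 8 were Mir467c, Mir467d and Mir467e of 14 Mir467 genes, and Mir669c, Mir669e, Mir669h, Mir669l and Mir669o of 29 Mir669 genes. No gene of the Mir466 stem, the Mir297 stem or the Gm names was detected. Together the array held 5353 reads in replicate 1 and 5383 in replicate 2, which are 1828 and 1477 CPM (1653 ± 248 CPM), or 0.183% and 0.148% of the assigned reads. Shares of the array's reads given below are shares of these assigned reads.

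The reads assigned to genes came from the ends of the array. Reads common to several copies enter no gene's count, so their positions along the array are not known. For description the array was divided at Mir467a-1 and Mir467a-10, the outermost Mir467a copies, a division made after the values were seen. The 21 genes before Mir467a-1 included 3 detected genes, and held 154 reads in replicate 1 and 236 in replicate 2. The 33 genes after Mir467a-10 included 5 detected genes, and held 5199 and 5147 reads, which are 97.1% (exact Clopper-Pearson 95% interval 96.6% to 97.6%) and 95.6% (95.03% to 96.1%) of the array's reads. The 65 genes from Mir467a-1 to Mir467a-10, which span 26.9 kb between first and last start, held 0 reads in both libraries.

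**Figure D1:**
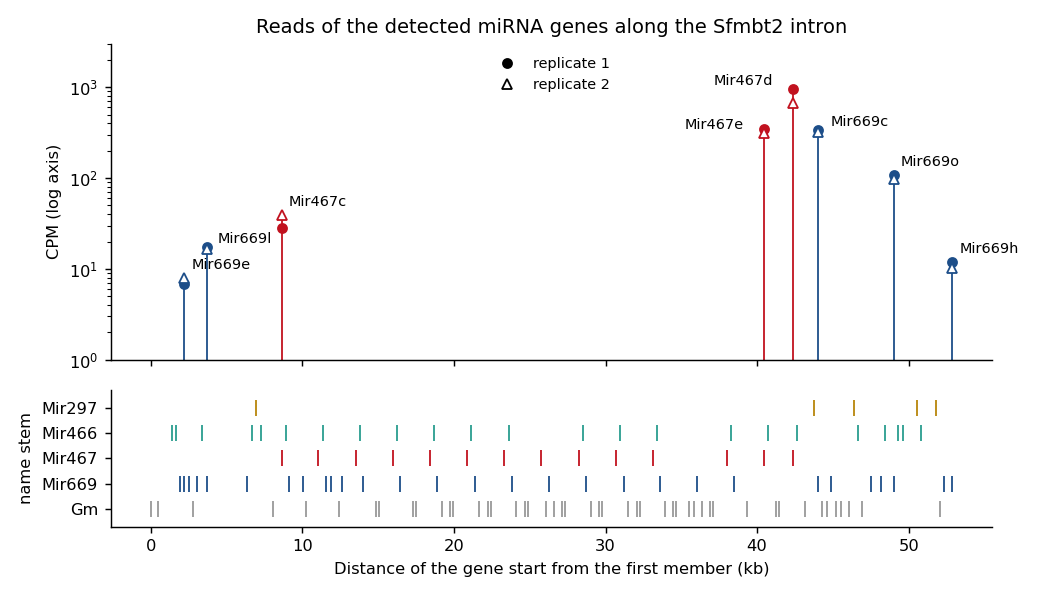
Above, CPM on a log axis for the 8 detected genes against distance of the gene start from the first member in kb (filled circles, replicate 1; open triangles, replicate 2; the line ends at the mean). Below, the start of each of the 119 genes by name stem. The detected genes stand before 9 kb and after 40 kb, and the repeated copies between them have no assigned reads.

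The middle of the array is also where hairpins could least be told apart. For each hairpin, every stretch of 20 bases was looked up in the hairpins of all 2202 annotated miRNA genes, and the share found in no other hairpin was taken as its unique share. In the 65 genes from Mir467a-1 to Mir467a-10 the median unique share was 0%, and 50 had no unique stretch. Before Mir467a-1 the median was 46.2% and 1 of 21 had none. After Mir467a-10 the median was 46.7% and 3 of 33 had none. The 119 genes held 88 distinct hairpin sequences, and 47 genes had at least 1 identical copy in the array. The largest set comprised Mir669a-4 to Mir669a-12, 9 genes with the same hairpin, and the next comprised 6 Mir467a genes with Gm25022. These 47 genes held no read. The counting rule sets this in advance, because a read within an identical hairpin has several positions.

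All 8 detected genes had a unique share above 0, from 37.9% for Mir467d to 95% for Mir669e (median 58.8%), and so did all 5 genes with fewer reads. Of the 54 genes without a unique stretch 0 had a read, and of the 65 with at least 1 such stretch 13 had a read. Over all annotated miRNA genes, 2 of 301 without a unique stretch were detected (0.664%), against 374 of 1901 with one (19.7%). Because reads with several positions enter no gene's count, low counts without a unique stretch were largely set in advance. These contrasts describe the counting and are no finding about expression. The unique share was taken among annotated hairpins, whereas reads were placed in the whole genome, so it does not equal what could be assigned. Hairpins and counts also followed the mm10 reference. Whether the CAST/EiJ copies of the array in these hybrid mice differ from it was not tested. For genes without a unique stretch, a count of 0 does not show absence of the miRNA from the hippocampus. For reads placed once, a count of 0 allows up to 3 counts, 1.02 CPM for replicate 1 and 0.823 CPM for replicate 2. The exact 95% intervals used for the other levels end at 1.26 and 1.01 CPM for a count of 0. Both limits cover counting error only.

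A unique hairpin was not always one with reads. With a unique share of at least 75% there were 14 genes, of which Mir669c and Mir669e were detected, Mir466g had 3 reads in replicate 1 and 0 in replicate 2, and 11 had none. Gm22239 and Gm23542 had a unique share of 100% and no read, and Mir466h (93.5%), Gm23578 (92.9%), Mir669b (87.2%) and Mir466l (85.3%) had none either. Mir669b starts within 1 kb of the detected Mir669e, and Gm24342, with 76.5%, is the next gene after Mir669c. Copies outside annotated hairpins were not analysed here.

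**Figure D2:**
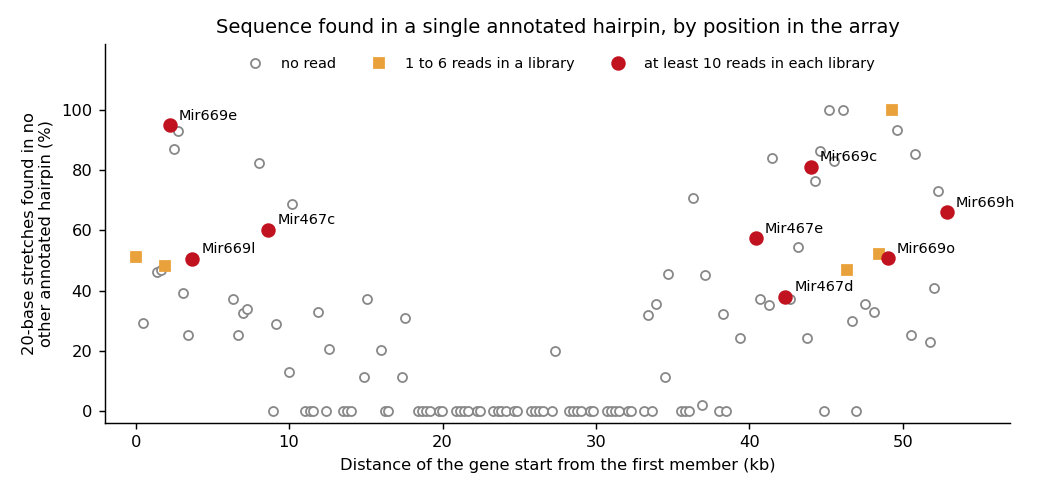
Share of a hairpin's 20-base stretches found in no other annotated hairpin, in percent, against distance of the gene start from the first member in kb, for all 119 genes. The 8 detected genes (filled circles) lie between 37.9% and 95%, and the genes at 0% have no reads (open circles).

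The Mir467 genes held most of the array reads that were assigned to a gene. Their share was 73.4% in replicate 1 (exact 95% interval 72.2% to 74.6%) and 68.8% in replicate 2 (67.6% to 70.1%). Reads common to several copies are missing from these shares, unevenly by stem. No unique stretch was found in 10 of 14 Mir467, 13 of 29 Mir669, 9 of 23 Mir466 and 22 of 48 Gm-named genes. The shares therefore do not give the composition of all miRNAs from the array. Mir669 genes made up 26.5% (25.3% to 27.7%) and 31.1% (29.9% to 32.4%). Mir466 had 9 and 2 reads, and Mir297 and the Gm-named genes had 0 reads in replicate 1 and 1 read each in replicate 2. The genes without reads included Mir467a-1, Mir466m, Mir669b, Mir297a-2 and Gm22677, the first of each stem in genome order.

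Mir467d (ENSMUSG00000077021.2, chromosome 2 from 10507630 to 10507714) was the leading gene. It had 2834 reads in replicate 1 and 2429 in replicate 2, which are 968 and 667 CPM (817 ± 213 CPM), and was the 95th and the 117th most abundant of all miRNA genes. It held 52.9% of the array's reads in replicate 1 and 45.1% in replicate 2. Mir467e (10505721 to 10505807), the gene most like it in sequence with 92.0% identity, starts 4 genes earlier. It had 1011 and 1133 reads, which are 345 and 311 CPM (328 ± 24.3 CPM). Mir467c (10473931 to 10474027), the Mir467 gene at the other end of the array, had 83 and 143 reads, which are 28.3 and 39.2 CPM (33.8 ± 7.70 CPM). The remaining 11 genes of the stem, Mir467a-1 to Mir467a-10 and Mir467b, had no read, and 10 of them had no unique stretch.

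Mir669c (10509296 to 10509404) led the Mir669 genes. It had 991 and 1185 reads, which are 338 and 325 CPM (332 ± 9.38 CPM), and held 18.5% and 22.01% of the array's reads. Mir669o (10514300 to 10514395) had 319 and 360 reads, which are 109 and 98.8 CPM (104 ± 7.18 CPM). It was 92.8% identical to Mir669a-1, which had no read and no unique stretch. Mir669l (10468971 to 10469068) followed with 51 and 61 reads, 17.4 and 16.7 CPM (17.1 ± 0.479 CPM). Mir669h (10518155 to 10518279), the last gene of the array, had 35 and 37 reads, 11.95 and 10.2 CPM (11.1 ± 1.27 CPM). Mir669e (10467495 to 10467613) had 20 and 29 reads, 6.83 and 7.96 CPM (7.39 ± 0.797 CPM).

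The 8 levels ranged from 817 CPM for Mir467d to 7.39 CPM for Mir669e. Mir467d, Mir669c and Mir467e together held 90.3% of the array's reads in replicate 1 and 88.2% in replicate 2. Mir467e stood above Mir669c in replicate 1 and below it in replicate 2, so their order was not fixed. Exact 95% intervals of the CPM also overlapped between Mir669l and Mir669h in both libraries (13.0 to 22.9 and 8.33 to 16.6 CPM in replicate 1, 12.8 to 21.5 and 7.15 to 14.0 CPM in replicate 2), and between Mir669h and Mir669e (4.17 to 10.5 CPM in replicate 1, 5.33 to 11.4 CPM in replicate 2). Inserts were shorter than 30 nucleotides and hairpins of the 8 genes 85 to 125 bases long. Set to 100 bases of hairpin, the mean levels were 961 CPM for Mir467d, 377 for Mir467e and 304 for Mir669c, and Mir669c then stood below Mir467e. Mature miRNAs are cut from part of a hairpin, so reads need not scale with its length. This change of order is therefore arithmetic only.

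**Figure D3:**
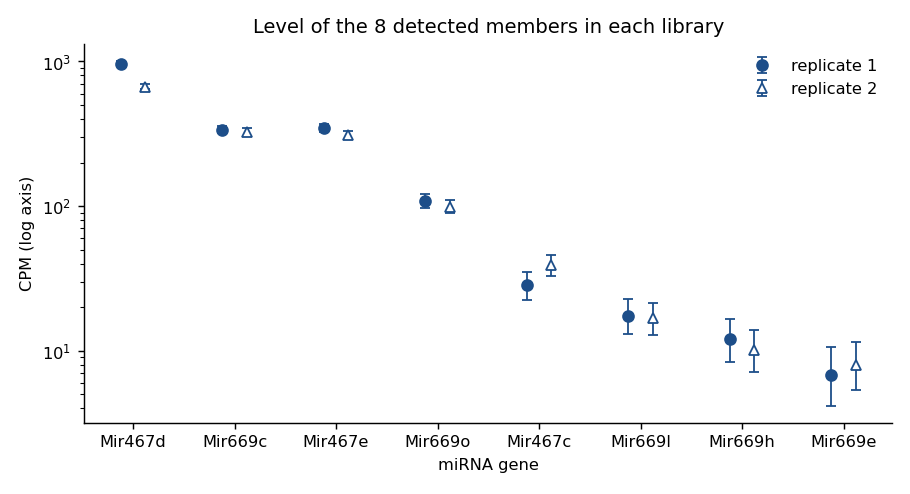
CPM on a log axis for the 8 detected genes, in order of their mean, in replicate 1 (filled circles) and replicate 2 (open triangles); bars are exact 95% intervals for counting error. Mir467d is the gene whose libraries stand farthest apart among the 3 leading genes, at 968 and 667 CPM.

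Both ends of the hairpin contributed unique sequence in the detected genes. Divided at the middle of the hairpin, Mir467d had 19 unique stretches wholly in its 5′ part and 6 in its 3′ part. Mir467e had 20 and 19, Mir467c 17 and 30, and Mir669c 18 and 36. Which arm the reads came from is not recorded in the counts.

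The 5 genes with reads below the minimum were named after their values were seen. Mir466n had 6 reads in replicate 1 and 2 in replicate 2, and Mir466g had 3 and 0. Mir669f had 0 and 2, and Mir297b and Gm22072 had 0 and 1 each. All 5 lie before Mir467a-1 or after Mir467a-10.

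Between the 2 libraries, 3 of the 8 detected genes of the array were called different, all of the Mir467 stem. The reads of each gene were compared by a two-sided exact binomial test, with the library totals as expectation and Benjamini-Hochberg adjustment over the 474 genes tested. The test contrasts single libraries and not conditions, and its only noise is counting error. It called 58.0% of all genes tested, 31.6% as higher in replicate 2 and 26.4% as higher in replicate 1. Of the 8 members tested, 1 was called higher in replicate 2 and 2 higher in replicate 1. In bulk tissue, fewer cells of a type and less RNA per cell cannot be told apart.

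Mir467d was higher in replicate 1 by 1.45-fold (exact 95% interval 1.37 to 1.53, adjusted exact binomial p = 1.03e-40). Mir467e was higher in replicate 1 by 1.11-fold (1.02 to 1.21, adjusted exact binomial p = 0.0300). Mir467c was 1.38-fold higher in replicate 2 (1.05 to 1.84, adjusted exact binomial p = 0.0349). The last call was lost with TMM scaling (adjusted exact binomial p = 0.0546) and with every gene that had a read in the test (0.0520). It was also lost with Mirlet7g, the most abundant gene by mean CPM, taken out of the totals (adjusted exact binomial p = 0.0744). In each of these settings the split was 0 against 2. The 3 Mir467 genes thus differed in direction.

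The 5 Mir669 genes were not called. Mir669c was at a ratio of replicate 2 to replicate 1 of 0.961 (exact 95% interval 0.882 to 1.05) and Mir669o at 0.907 (0.778 to 1.06). The intervals of Mir669l (0.652 to 1.42), Mir669h (0.520 to 1.39) and Mir669e (0.637 to 2.17) were wider, at 20 to 61 reads, and do not show that these genes were alike in both libraries. Over the 8 genes the median log2 ratio was -0.10 and the median absolute log2 ratio 0.17. Over all 474 genes tested these were 0.04 and 0.44. Those genes were admitted from a summed count of 10, whereas the 8 members had at least 20 reads in each library. The medians are therefore not at like depth and do not show that the array was steadier.

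Summed over the array, replicate 1 was 1.24-fold higher (exact 95% interval 1.19 to 1.29, counting error only). Without Mir467d the difference was 1.06-fold (1.01 to 1.12), at 860 and 811 CPM. The genes before Mir467a-1 summed to 52.6 CPM (replicate 1) and 64.8 CPM (replicate 2), a ratio of replicate 2 to replicate 1 of 1.23 (exact 95% interval 1.001 to 1.52). Those after Mir467a-10 summed to 1776 and 1412 CPM, a ratio of 0.795 (0.765 to 0.827). The intervals do not overlap, but they cover counting error only, and the division was made after the values were seen.

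**Figure D4:**
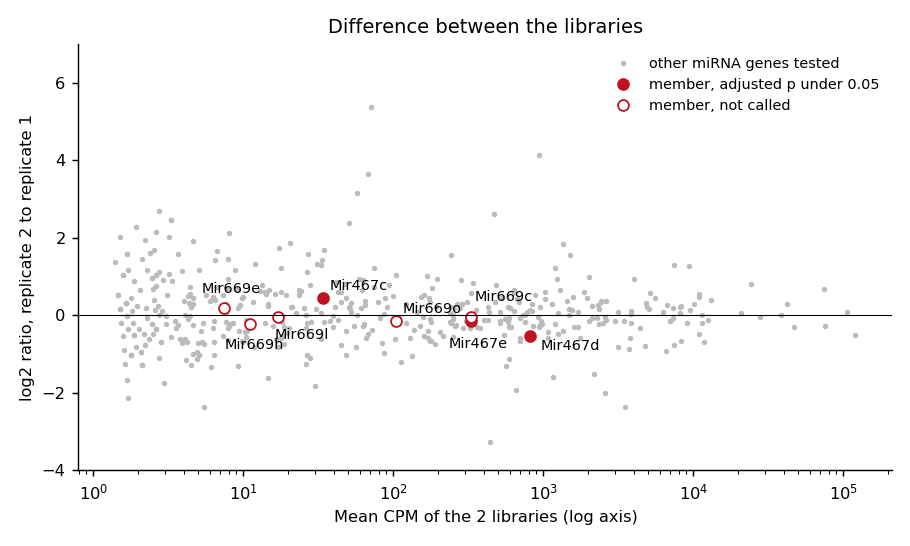
log2 ratio of replicate 2 to replicate 1 (pseudocount 1 CPM) against mean CPM on a log axis for the 474 genes tested (grey), with the 8 members in red, filled where called. The members lie between -0.54 for Mir467d and 0.46 for Mir467c, within the range of the other genes.

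Genes of the same stems elsewhere in the genome had almost no reads. Of 10 such genes 0 were detected, and Mir466q on chromosome 3, with 3 and 5 reads, was the 1 gene with any. Their median unique share was 70.8%, and each had some unique stretch. The Mir379 to Mir410 array on chromosome 12, also in an imprinted region, had 33 of 38 genes detected and held 5.42% and 5.27% of assigned reads. Its median unique share was 100%, and 0 of 38 genes lacked a unique stretch. Of the 13 Mir344 genes on chromosome 7, 2 were detected, Mir344b (117 and 283 reads) and Mir344g (19 and 10 reads), and the median unique share was 52.6%. In the Sfmbt2 array 54 of 119 genes (45.4%) lacked a unique stretch, against 13.7% of all miRNA genes.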

How the data were processed

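Small RNA libraries from total RNA were counted by the authors as whole reads per miRNA gene on mm10 with GENCODE M21, according to notes deposited beside them. The aligner is not given in the sources used here. In each library the deposited counts have 3 unnamed columns, read as without strand, sense and antisense, because the second held more reads than the third. Sense counts were used. The 4 rows that name no gene (69.5% and 65.3% of reads) were left out of totals. For the 119 members, counts without strand equalled sense counts and antisense counts were 0.

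Members, gene lists and tests were chosen with earlier results of these data known. Genes named are all detected members, the first member of each stem without reads, and detected genes of the same stems elsewhere; others were named after their values were seen. Symbols, positions and hairpins came from GENCODE M21, and mature sequences from RefSeq (GRCm38.p6), which matched 0 of the 119 members and 9 of 10 genes of the same stems elsewhere. The search for mature sequences in the genome was not run, and 20-base stretches of hairpins took its place after the data were seen. Identity is 1 minus the edit distance over the longer hairpin. The libraries were no duplicate deposit (chi-square 390 times its degrees of freedom). The binomial test was tested on simulated data with counting error as the only noise. That simulation does not cover other differences between these libraries. Python 3.11.15, scipy 1.17.1, edgeR 4.0.16 and DESeq2 1.42.0 (scaling only) were used, with a pseudocount of 1 CPM for log2 ratios.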

Additional observations from a re-analysis of the deposited data

How the results depend on the processing

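The count of 8 detected genes was the same with a minimum of 5 or 20 reads and with either library alone (8 to 8). Without strand it could not differ, because the members' counts were then equal to their sense counts. All 8 kept a unique stretch of 18 or 22 bases. The summed level was 1477 to 1828 CPM with 1 library left out, and 536 per 1000000 when all reads of the tables were the denominator. With Mirlet7g, highest by mean CPM, taken out of the totals, the log2 ratio of the array's sum was -0.38 in place of -0.31. Mirlet7g itself differed between the libraries, at 141801 CPM in replicate 1 and 99084 CPM in replicate 2. The number of members called higher in replicate 2 was 0 in place of 1 under TMM scaling, with those totals and with every gene that had a read, each time by the loss of Mir467c. Under DESeq2 scaling, without strand and with a summed count of at least 50 it stayed 1, and 2 were called higher in replicate 1 in all settings run. Among values of single genes, stems and hairpin uniqueness, 3 lost their call and 10 moved by more than the spread between libraries. The remaining 109 did neither, but many of them could not have moved. With n = 2, leaving out 1 library shifts a mean by less than the SD. Stem shares without strand were the same numbers. The 109 are therefore no measure of stability. No paired analysis was possible because there is 1 group. Depth limits the ratios of Mir669l, Mir669h and Mir669e, at 20 to 61 reads. Of the 65 genes from Mir467a-1 to Mir467a-10, 50 had no unique stretch and 15 had at least 1, and none had a read; the part of shared sequence in this was not tested.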
